A study of Mus musculus with 15 samples.

Results

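Of the 39 protein-coding HOX genes of the mouse, every gene named Hoxa, Hoxb, Hoxc or Hoxd plus a number, 38 were followed in intestinal organoids. All 38 were present in both the count table of 43629 genes and the table of expression levels. They lie in 4 clusters: 10 HoxA genes on chromosome 6 (chr6:52162417-52260880, GRCm38), 10 HoxB genes on chromosome 11 (chr11:96194316-96368256), 9 HoxC genes on chromosome 15 (chr15:102921103-103036852) and 9 HoxD genes on chromosome 2 (chr2:74668310-74765142). By paralogue number, 11 were anterior (1 to 4), 15 central (5 to 9) and 12 posterior (10 to 13).

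HOX genes encode homeodomain transcription factors that give cells their place along the head-to-tail axis. Within a cluster the low-numbered genes are generally used further forward in the embryo and the high-numbered genes further back, and paralogues are genes of the same number in different clusters. The gut keeps regional differences in HOX use after development, in the mesenchyme and in the epithelium, and several HOX proteins bind DNA together with PBX and MEIS partners.

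Poly(A) RNA was sequenced from organoids, which are cultures grown from crypts, here of the proximal small intestine of C57B6/129 mice. The 5 WT libraries were 4 Apc flox/flox lines with an intact gene (lines 1, 2, 5 and 6) and 1 dox-naive culture. The labels put them in ENR medium, which holds EGF, Noggin and RSPO1. The 4 Apc libraries were Apc delta/delta, carried the same line numbers and grew in EN medium, without RSPO1. The 4 P-Rspo3 libraries carried the Ptprk-Rspo3 rearrangement and also grew in EN; they are called 15d, 4d, M and F after their titles, which the labels do not explain. The rearrangement came from dox-induced Cas9 and paired guides in R26-rtTA/c3GIC9 organoids, and these cultures were polyclonal. Genotype and medium cannot be told apart in these groups, and neither can the P-Rspo3 genotype and the origin of the lines, since 4 of the 5 WT libraries came from Apc flox animals.

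Libraries held 28902729 to 35528495 counts. Counts of Rspo3 ran from 539 to 1079 with the rearrangement, against 0 to 1 for WT. Apc had 9265 to 10953 counts in the Apc libraries and 4046 to 6810 in WT, and a count over the whole gene does not check a deletion of part of it. The epithelial markers Epcam, Cdh1, Vil1, Krt8, Krt18 and Krt19 together reached 1877 to 2297 FPKM (fragments scaled to gene length and library size, a level per length) in WT, 1800 to 2284 in Apc and 1863 to 2284 in P-Rspo3. These sums join opposite changes. Krt18 lay at 161 to 220 FPKM in WT and 443 to 614 in Apc. Vil1 lay at 149 to 207 in WT and 82.3 to 99.0 in Apc, and Krt19 at 576 to 813 and 340 to 557. Epcam, Cdh1 and Krt8 changed less. The 8 mesenchymal markers together reached at most 0.179, 0.841 and 0.633 FPKM in WT, Apc and P-Rspo3, and 5, 4 and 5 of the 8 had 3 counts or fewer in every library of the group. The 4 smooth muscle markers together stayed at or under 0.172 FPKM. Samples were bulk RNA, so fewer cells of a type and less RNA per cell cannot be told apart.

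HOX transcripts were rare in all groups. Summed over the 38 genes, they made up 3.20 to 11.1 CPM (counts scaled to a library of fixed size) in WT, 0.732 to 6.40 in Apc and 7.65 to 29.02 in P-Rspo3. A count of 3 or fewer in a library was read as not detectable. By that rule 21 of the 38 genes were detectable in at least 1 of the 13 libraries and 17 in none. Only Hoxa2, Hoxa3, Hoxa5, Hoxa7 and Hoxd4 reached 1 FPKM in any library. The detectable genes were 7 of 11 anterior, 11 of 15 central and 3 of 12 posterior members.

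The clusters were unequal. In WT, 8 of 10 HoxA genes were detectable in at least 1 library, against 3 of 10 HoxB, 0 of 9 HoxC and 1 of 9 HoxD genes. Hoxc4, Hoxc8, Hoxc9, Hoxc10, Hoxc11, Hoxc12 and Hoxc13 were at 0 counts in all 13 libraries, as were Hoxa11, Hoxb13, Hoxd9, Hoxd10, Hoxd11 and Hoxd12. At these depths a count of 0 allows up to 3 counts per library, so very low levels were not detectable rather than absent. Hoxc5 was seen in 2 counts of P-Rspo3 15d, and Hoxc6 in 8 and 5 counts of P-Rspo3 15d and 4d and in at most 2 elsewhere.

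**Figure D1:**
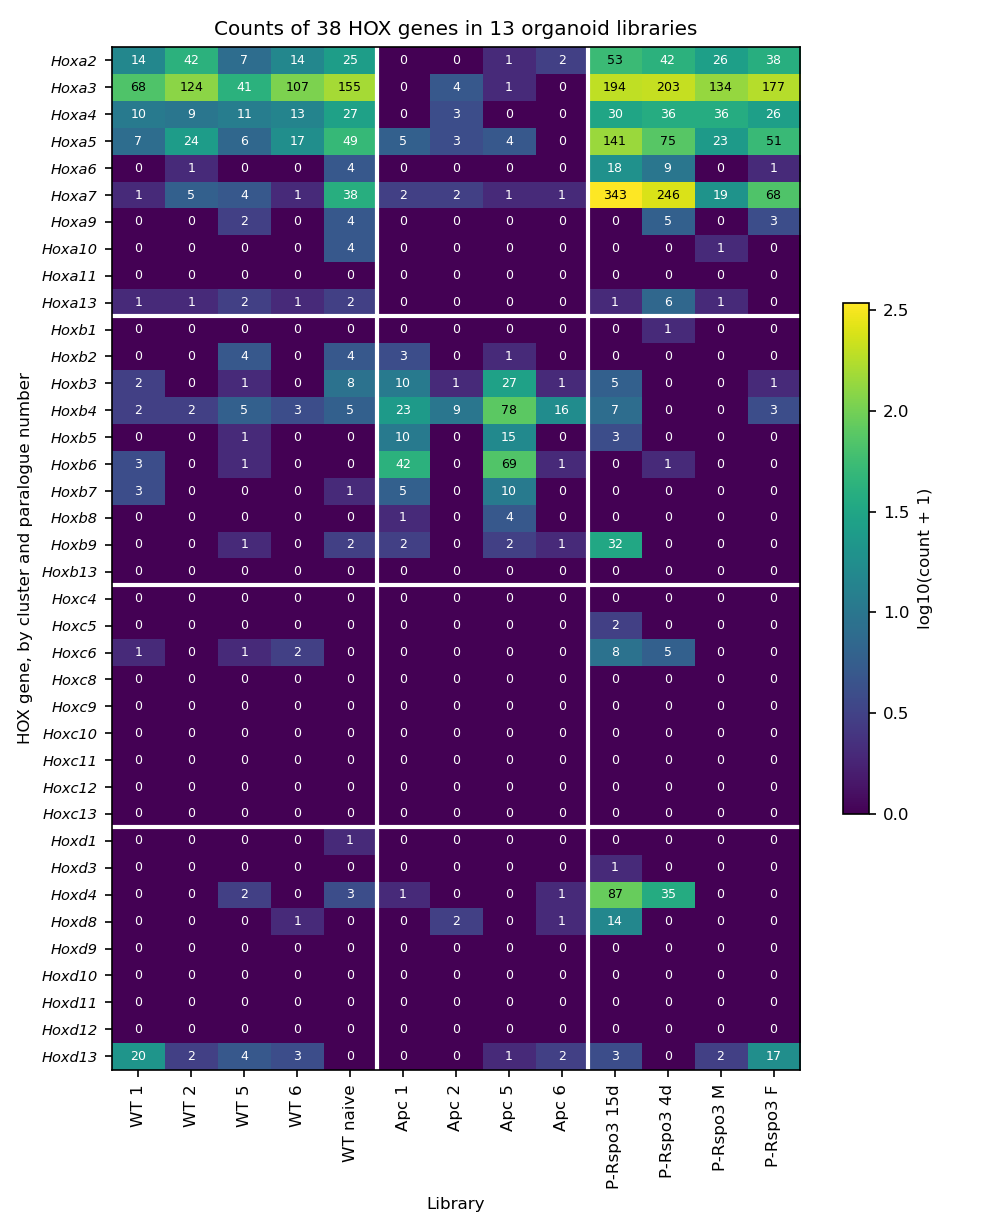
Deposited counts of the 38 HOX genes (rows, by cluster and paralogue number) in the 13 grouped libraries (columns), printed in each cell and coloured on a log10(count + 1) scale. White lines part the clusters and the groups. Most counts lie in Hoxa2 to Hoxa7 of the WT and P-Rspo3 libraries, in Hoxb3 to Hoxb7 of Apc 1 and Apc 5, and in Hoxd4 of P-Rspo3 15d and 4d.

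Hoxa3, an anterior gene known for its part in the pharyngeal region, was the leading HOX gene of the WT organoids. Its level was 1.60, 2.49, 0.702, 1.97 and 2.60 FPKM in WT 1, 2, 5, 6 and naive, a mean of 1.87 ± 0.767 (SD, n = 5). It made up 43.0 to 72.0% of the FPKM summed over the 10 HoxA genes of each WT library. The annotation shares 27.1% of its exon bases with other genes on either strand, among them the antisense Hoxaas2 and Hoxaas3. Whether counting used strand is not given in the sources used here, so part of these reads could belong to those genes.

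The other detectable HoxA genes of WT were lower. Hoxa2, a hindbrain and branchial arch gene, lay at 0.287, 0.863, 0.177, 0.219 and 0.536 FPKM in WT 1, 2, 5, 6 and naive. Hoxa5, known for its roles in lung and gut morphogenesis, lay at 0.114, 0.432, 0.110, 0.257 and 0.878 FPKM. Hoxa4 lay between 0.208 and 0.624 FPKM, with its highest value in the dox-naive library. The order of group means was Hoxa3, Hoxa2, Hoxa5, Hoxa4 and Hoxa7. The ranges of Hoxa2, Hoxa5, Hoxa4 and Hoxa7 overlapped, and the lowest Hoxa3 value, 0.702 FPKM in WT 5, lay below the highest values of Hoxa2, Hoxa5 and Hoxa7 in other libraries.

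The dox-naive library stood apart from the flox lines at the posterior side of this stretch. Hoxa7, a central gene best known for trunk patterning, had 1, 5, 4 and 1 counts in WT 1, 2, 5 and 6 and 38 in WT naive. Its level there was 1.05 FPKM, against 0.0388 to 0.127 in the flox lines. WT naive is the only WT library of the line family in which the rearrangement was made, so line origin and single-library variation cannot be told apart.

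Promoters of 4 members are shown, taken from genes with group differences (Hoxa3 and Hoxa5, among others) or that set single libraries apart (Hoxa7 and Hoxd4). RefSeq (GRCm38.p6) gave 24 windows for 22 of the 38 genes, each from 250 bases before to 50 bases after a transcript start. Capitals mark 3 short letter runs on either strand: CTTTGA and CTTTGT, the cores of TCF/LEF motifs, and TTTATG, a core of CDX motifs. No 2 of these runs contain each other, though neighbouring matches can merge in print. The windows are Hoxa3 at chr6:52213018-52213317, Hoxa5 at chr6:52204538-52204837 and Hoxa7 at chr6:52218524-52218823, all on the minus strand, and Hoxd4 at chr2:74721728-74722027 on the plus strand, each printed 5′ to 3′ in gene direction.
Hoxa3: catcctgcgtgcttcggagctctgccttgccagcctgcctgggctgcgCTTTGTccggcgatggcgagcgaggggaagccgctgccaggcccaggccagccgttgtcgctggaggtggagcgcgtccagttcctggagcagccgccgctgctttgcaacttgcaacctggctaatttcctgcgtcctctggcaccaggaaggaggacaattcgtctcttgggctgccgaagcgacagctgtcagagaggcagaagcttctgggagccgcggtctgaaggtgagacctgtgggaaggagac
Hoxa5: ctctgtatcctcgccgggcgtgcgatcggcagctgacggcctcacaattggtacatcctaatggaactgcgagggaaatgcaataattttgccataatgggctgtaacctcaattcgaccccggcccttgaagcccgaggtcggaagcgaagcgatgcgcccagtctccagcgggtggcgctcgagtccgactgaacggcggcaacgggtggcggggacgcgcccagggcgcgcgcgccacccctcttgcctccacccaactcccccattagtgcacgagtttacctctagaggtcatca
Hoxa7: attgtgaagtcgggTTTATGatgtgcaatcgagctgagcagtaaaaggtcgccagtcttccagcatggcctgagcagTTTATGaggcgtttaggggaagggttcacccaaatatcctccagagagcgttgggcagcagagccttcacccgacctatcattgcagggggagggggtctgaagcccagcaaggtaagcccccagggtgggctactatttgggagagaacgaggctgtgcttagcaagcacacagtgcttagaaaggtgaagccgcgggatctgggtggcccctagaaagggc
Hoxd4: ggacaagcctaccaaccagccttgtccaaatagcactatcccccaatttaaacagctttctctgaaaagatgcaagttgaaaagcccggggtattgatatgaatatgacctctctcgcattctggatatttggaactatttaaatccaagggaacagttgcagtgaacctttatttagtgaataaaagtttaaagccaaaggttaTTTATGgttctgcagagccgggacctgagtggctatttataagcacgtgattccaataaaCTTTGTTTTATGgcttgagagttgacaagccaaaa
The Hoxa7 window holds TTTATG at 2 places, the Hoxd4 window TTTATG at 2 places and CTTTGT once, and the Hoxa3 window CTTTGT once. The Hoxa5 window holds none of the 3, and neither does the window of Hoxa2, which is not printed. Over all 32851 promoter windows, 16.0% hold CTTTGA, 18.7% CTTTGT and 11.9% TTTATG. Among the 24 member windows these runs occur in 4, 6 and 5. The Hoxa5 window has 29 CG dinucleotides, Hoxa3 20, Hoxa7 9 and Hoxd4 4, beside a median of 7 over all windows. These matches describe letters in the windows and show no binding.

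The first comparison asked how HOX expression differed between Apc organoids and WT. Anterior and central HoxA genes had few or no counts in the Apc libraries. Hoxa2, Hoxa3, Hoxa4 and Hoxa5 fell, and none of their FPKM values in the 4 Apc libraries reached any WT value. Over all 16749 genes tested, 16.6% lay lower in FPKM in every Apc library than in every WT library. With edgeR's quasi-likelihood test and Benjamini-Hochberg adjustment, a gene was called at an adjusted p under 0.05 and a log2 change past 1. Genes entered with at least 0.1 FPKM in 4 libraries, and 5 of the 38 members did. Of these, 4 were called lower and 0 higher, where 14.1% of all genes tested were called lower and 12.2% higher. The 33 other members had too few fragments to enter. A member enters chiefly through the group where it is high, so these counts say nothing of the remaining genes.

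Hoxa3 had 68, 124, 41, 107 and 155 counts in WT 1, 2, 5, 6 and naive. The Apc libraries 1, 2, 5 and 6 held 0, 4, 1 and 0. The log2 change was -6.54 ± 0.73 (SE), a 93.2-fold lower level (adjusted p = 2.23e-05). Without Apc 2, the library with 4 of the 5 Apc counts, it was -8.13. In FPKM, Apc 2 stood above the other Apc libraries at 0.195, against 0 to 0.0115. Levels and counts come from different tools, and Apc 1 was given 0.0069 FPKM at a count of 0.

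Hoxa2 had 14, 42, 7, 14 and 25 counts in the WT libraries and 0, 0, 1 and 2 in Apc. Its log2 change was -4.95 ± 0.81 (adjusted p = 0.000338), and -5.81 without Apc 6. From 102 counts in WT and 3 in Apc, scaled to library size, the ratio was 35.9-fold, with a 95% exact counting interval of 11.9 to 177.

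Hoxa4 had 10, 9, 11, 13 and 27 counts in WT and 0, 3, 0 and 0 in Apc. Its log2 change was -4.38 ± 0.80 (adjusted p = 0.000695), and the ratio of counts was 24.6-fold (counting interval 8.08 to 122). All 3 Apc counts came from Apc 2, and without it the fitted log2 change was -7.01, which is no bound because the remaining Apc libraries were at 0. Hoxa5 had 7, 24, 6, 17 and 49 counts in WT and 5, 3, 4 and 0 in Apc. Its log2 change was the smallest of the 4 at -3.13 ± 0.80 (adjusted p = 0.00599), and the lowest WT count, 6, lay just above the highest Apc count, 5. Without WT naive it was -2.50 and still called (adjusted p = 0.0104). Counting intervals cover counting error only. With limma on log2(FPKM + 1), a scale on which a gene under 1 FPKM cannot fall by more than 1, only Hoxa3 was called, and Hoxa2 stood at -0.47 (adjusted p = 0.00858), Hoxa4 at -0.37 (adjusted p = 0.0046) and Hoxa5 at -0.35 (adjusted p = 0.0544).

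Hoxa7 did not enter this comparison. Its counts were 2, 2, 1 and 1 in Apc, inside the range of the 4 flox lines, and below WT naive. Hoxa6, Hoxa9, Hoxa10 and Hoxa13 were at 0 in all 4 Apc libraries, from at most 4 counts in any WT library.

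**Figure D2:**
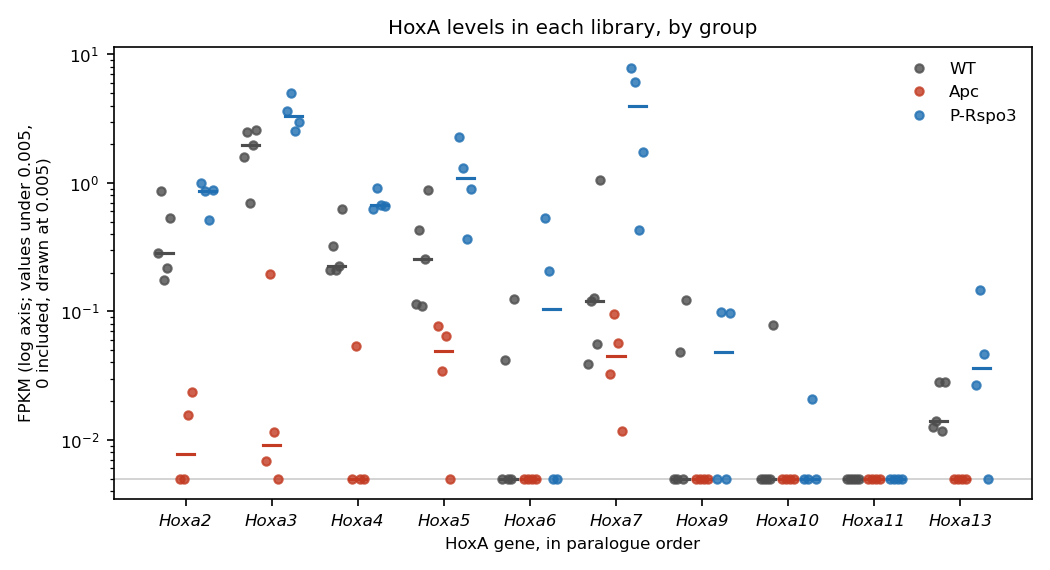
FPKM of the 10 HoxA genes (log axis, values under 0.005 drawn at 0.005) in each library, by group, with short bars at group medians. For Hoxa2, Hoxa3, Hoxa4 and Hoxa5 all 4 Apc points lie below all WT and P-Rspo3 points, and Hoxa7 spreads from 0.427 to 7.90 within P-Rspo3.

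The HoxB cluster ran the other way, in some Apc lines. Summed HoxB counts were 96, 10, 206 and 19 in Apc 1, 2, 5 and 6, against 2 to 20 in the WT libraries and 0 to 47 in P-Rspo3. Hoxb4, an anterior gene also known from blood stem cells, had 23, 9, 78 and 16 counts in Apc. It had 2, 2, 5, 3 and 5 counts in WT and 7, 0, 0 and 3 in P-Rspo3. All 4 Apc values lay above all 9 others, as they did for 23.6% of all 26873 genes with any count.

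Hoxb6, a central gene used in the trunk and limb bud, showed a split between lines. It had 42 and 69 counts in Apc 1 and 5 and 0 and 1 in Apc 2 and 6. Hoxb3 had 10 and 27 counts in Apc 1 and 5 and 1 in each of Apc 2 and 6. Hoxb5 had 10 and 15 against 0 and 0, and Hoxb7 5 and 10 against 0 and 0. Hoxb3, Hoxb5, Hoxb6 and Hoxb7 were thus detectable in the same 2 of 4 Apc lines, and Hoxb1, Hoxb2, Hoxb9 and Hoxb13 in none.

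Hoxb3 was the only HoxB gene past the FPKM minimum, and it was not called (log2 change 1.69 ± 1.10, adjusted p = 0.213). Its exons share 52.9% of their bases with the antisense Hoxb3os. No member was called higher, and 0 of the 5 tested were higher at an unadjusted p under 0.05. DESeq2 and limma called none higher either. Without the FPKM minimum, 26170 genes were tested, and Hoxb4, Hoxb5 and Hoxb6 were called higher, where 10.6% of genes were. Hoxb4 then stood at a log2 change of 2.76 ± 0.63 (adjusted p = 0.00272), Hoxb5 at 3.96 ± 1.37 (adjusted p = 0.033) and Hoxb6 at 4.55 ± 1.30 (adjusted p = 0.0122).

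Apc 1 and 5 decided most of this. With both left out and no FPKM minimum, Hoxb6 stood at -0.90 (adjusted p = 0.696), Hoxb5 at -1.46 (adjusted p = 0.54) and Hoxb4 at 1.42 (adjusted p = 0.0701), and none was called. The same fit on all libraries called 7 members lower, where 10.5% of genes were: Hoxa2 to Hoxa5, with Hoxa7 (-3.03, adjusted p = 0.0373), Hoxa13 (-3.79, adjusted p = 0.0137) and Hoxd13 (-3.12, adjusted p = 0.0376). Hoxa13 rested on 7 counts over the WT group, at most 2 in a library, and 0 over Apc, at least 2.46-fold lower by a limit of 3 counts over the group. Hoxa7 rested mostly on WT naive, with 38 of the 49 WT counts, and Hoxd13 on WT 1, with 20 of 29. In the other WT libraries the counts of both genes overlapped those of Apc. Without Apc 1 and 5 only Hoxa2, Hoxa3, Hoxa4 and Hoxa5 were called lower, where 9.11% of genes were.

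**Figure D3:**
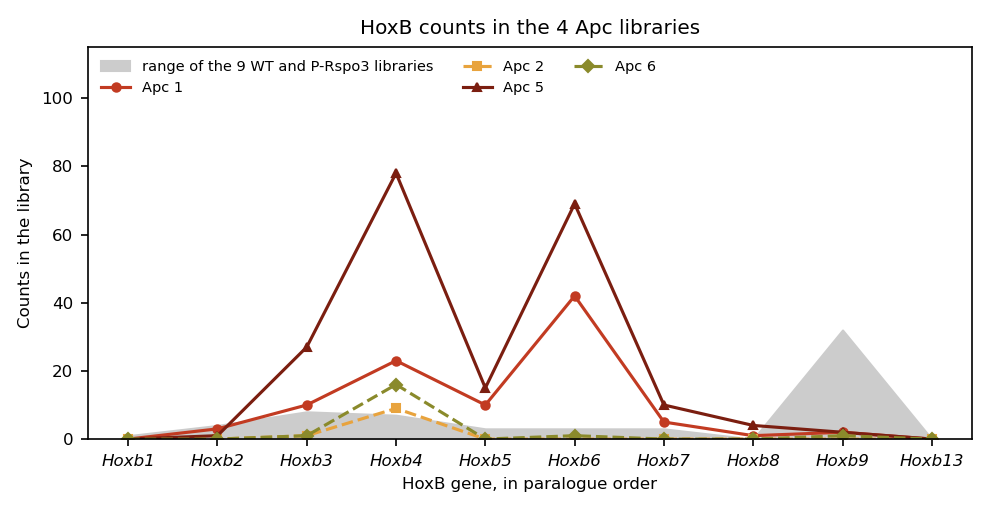
Counts of the 10 HoxB genes (x axis, paralogue order) in the 4 Apc libraries, with the range of the 9 WT and P-Rspo3 libraries in grey. Apc 1 and Apc 5 show peaks at Hoxb4 and Hoxb6, up to 78 and 69 counts, and Apc 2 and 6 pass the grey range at Hoxb4 but stay within it at Hoxb6. The grey peak at Hoxb9 is P-Rspo3 15d.

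The second comparison asked whether P-Rspo3 organoids differed from WT. HoxA levels were higher on average in P-Rspo3, and no member was called. Of the 5 members tested (Hoxa2, Hoxa3, Hoxa4, Hoxa5 and Hoxa7), edgeR called 0 higher and 0 lower, where 0.00625% of all 15992 genes were called higher, a single gene, and 0% lower. At an unadjusted p under 0.05 there were 4 of the 5, beside 13.5% of all genes. DESeq2 called 1 member higher, Hoxa7, and limma called 0.

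Hoxa7 showed the widest gap. It had 343, 246, 19 and 68 counts in P-Rspo3 15d, 4d, M and F, against 1, 5, 4, 1 and 38 in WT 1, 2, 5, 6 and naive. P-Rspo3 M, at 19, lay below WT naive, so the groups overlapped. The log2 change was 4.01 ± 1.03 (adjusted p = 0.148, and 0.0333 with DESeq2). Without WT naive it was 5.83 ± 0.98 and called (adjusted p = 0.0146), in a fit that called 166 of all 15756 genes higher (1.05%). Without P-Rspo3 15d and 4d it was 2.17 (adjusted p = 0.87). Part of its exons, 20.4%, are shared with the antisense Hoxaas3.

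Hoxa4 had 30, 36, 36 and 26 counts in P-Rspo3 15d, 4d, M and F, and in FPKM all 4 lay above the WT libraries, by a narrow margin over WT naive (0.625 against 0.624). Over all genes tested, 2.06% were higher in every P-Rspo3 library than in every WT library. Its log2 change was 1.17 ± 0.34 (adjusted p = 0.187), and 1.57 ± 0.23 without WT naive (adjusted p = 0.00687). Hoxa5 had 141, 75, 23 and 51 counts, and its log2 change was 1.75 ± 0.63 (adjusted p = 0.26). The ranges of Hoxa5 overlapped, since P-Rspo3 M lay below WT naive.

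Hoxa3 had 194, 203, 134 and 177 counts in P-Rspo3, a mean level of 3.54 ± 1.06 FPKM (SD, n = 4), with a log2 change of 0.83 ± 0.34 (adjusted p = 0.325). Hoxa2 had 53, 42, 26 and 38 counts and a log2 change of 0.92 ± 0.45 (adjusted p = 0.41). Over the 5 tested members the median log2 change was 1.17, beside 0.004 over all genes. All 5 lie in the HoxA cluster, and Hoxa7 passed the FPKM minimum only with its P-Rspo3 libraries, so this median is no test of a rise. With no FPKM minimum and without WT naive, Hoxa4, Hoxa5 (2.39, adjusted p = 0.0435) and Hoxa7 were called higher, where 0.77% of all 24807 genes were.

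The P-Rspo3 libraries differed among themselves. In 15d and 4d Hoxa7 was the leading HoxA gene, at 49.4 and 41.9% of the summed HoxA FPKM, and in M and F it was Hoxa3, at 55.4 and 41.2%. Hoxd4 had 87 and 35 counts in 15d and 4d and 0 in both M and F. Its level was 3.81 and 1.29 FPKM in 15d and 4d, and WT held at most 3 counts. Hoxd4 shares 52.3% of its exon bases with same-strand genes, among them Hoxd3, so its reads could not all be assigned alone. Hoxd3 itself had 1 count in 15d and 0 in all other libraries.

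P-Rspo3 15d carried central members that no other library had at such counts. Hoxb9, a central gene, had 32 counts in 15d and 0 in 4d, M and F. Hoxd8 had 14 counts in 15d and 0 in the same libraries. Hoxa6 had 18 and 9 counts in 15d and 4d, 0 in M and 1 in F. Hoxd13, the most posterior HoxD gene, had 17 counts in F and 20 in WT 1, and at most 4 in the other 11 libraries.

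Markers of gut regions differed among the same libraries. P-Rspo3 15d had the lowest level of Gata4, a proximal small intestine gene, among the 9 WT and P-Rspo3 libraries, at 57.5 FPKM against 73.4 to 98.8 in the others. It was also lowest for Onecut2 (5.15 FPKM, others 9.68 to 14.8) and Pdx1 (0.436, others 1.07 to 10.3). The remaining marker of the proximal list, Lct, the gene of lactase, was not low in 15d, at 13.96 FPKM against 5.66 to 55.3 in the others. P-Rspo3 4d, second in Hoxa7 and Hoxd4, did not stand apart in Gata4 (86.3 FPKM) or Onecut2 (14.4). In summed level the 4 proximal markers ranged from 116 to 151 FPKM in WT, 77.0 to 140 in P-Rspo3 and 67.3 to 75.4 in Apc. The colon markers Car1, Aqp8 and Prdx6b, of which Prdx6b had at most 4 counts in any library, together ranged from 0.0871 to 2.36, 0.173 to 0.7005 and 0.308 to 2.96 FPKM in WT, P-Rspo3 and Apc. These sums join opposite changes. Car1 had 0 counts in all WT and P-Rspo3 libraries and 12, 7, 47 and 131 in Apc 1, 2, 5 and 6, and was called higher in Apc against WT (adjusted p = 0.00502). Aqp8 was called lower in Apc against WT (log2 change -3.42 ± 0.99, adjusted p = 0.0116). The ileum list ranged from 25.4 to 54.2, 28.7 to 45.9 and 0.679 to 1.52 FPKM in the same order. In WT and P-Rspo3 most of this sum was Slc51a and Slc51b, both called lower in Apc against WT. Slc10a2 was called higher there (log2 change 1.20 ± 0.28, adjusted p = 0.00374). P-Rspo3 15d was highest of the 9 WT and P-Rspo3 libraries for Fabp6 (19 counts, others 0 to 5) and Slc10a2 (49 counts, others 5 to 21). For Slc51a and Slc51b it lay inside the range of the others. The part of regional identity in the HOX values was not tested.

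Apc and P-Rspo3 organoids shared the medium without RSPO1, and the last comparison asked how HOX genes differed between them. All 5 members tested (Hoxa2, Hoxa3, Hoxa4, Hoxa5 and Hoxa7) were called lower in Apc and 0 higher, where 13.3% of all 16456 genes were called lower and 13.4% higher. The groups did not overlap in FPKM for any of the 5, where 17.5% of all genes lay lower in every Apc library than in every P-Rspo3 library. All 5 members passed the FPKM minimum through the P-Rspo3 libraries, and in Apc only Hoxa3 reached it, in Apc 2. Members thus entered through the group where they are high, so these counts and the lack of overlap say nothing of the remaining genes. This comparison shares the Apc libraries with the first, so their low values enter both.

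The log2 change was -7.36 ± 0.61 for Hoxa3 (adjusted p = 1.02e-05), -7.02 ± 1.02 for Hoxa7 (adjusted p = 0.000301) and -5.86 ± 0.56 for Hoxa2 (adjusted p = 2.26e-05). Hoxa4 stood at -5.54 ± 0.68 (adjusted p = 0.000104) and Hoxa5 at -4.87 ± 0.72 (adjusted p = 0.000337). Without P-Rspo3 15d and 4d the same 5 were still called lower, with Hoxa7 at -5.20 and Hoxa5 at -4.01. Without Apc 2, Hoxa3 was at -8.95 and Hoxa4 at -8.20, and without Apc 6, Hoxa2 was at -6.72, all still called. On log2(FPKM + 1) limma called only Hoxa3, Hoxa5 and Hoxa7.

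Without the FPKM minimum, Hoxb4 (3.24 ± 0.92, adjusted p = 0.0142) and Hoxb6 (5.92 ± 1.699, adjusted p = 0.0156) were called higher in Apc, where 11.1% of genes were. Hoxa6 (-6.00, adjusted p = 0.0227) and Hoxd4 (-5.90, adjusted p = 0.0113) joined those called lower, where 9.94% of genes were. Hoxb6 rested on 112 counts over Apc, 111 of them from Apc 1 and 5, and 1 over P-Rspo3, an Apc to P-Rspo3 ratio of 86.4 (counting interval 15.2 to 3440). Hoxd4 rested on 122 counts over P-Rspo3, all from 15d and 4d, and 2 over Apc, a P-Rspo3 to Apc ratio of 79.1 (counting interval 21.4 to 661). Hoxa6 had 28 counts over P-Rspo3 and 0 over Apc, at least 12.1-fold lower by the limit of 3 counts over the group. Without Apc 1 and 5, none of these 4 was called: Hoxb4 stood at 1.90 (adjusted p = 0.154), Hoxb6 at 0.45 (adjusted p = 0.866), Hoxa6 at -5.93 (adjusted p = 0.0701) and Hoxd4 at -5.88 (adjusted p = 0.0727).

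**Figure D4:**
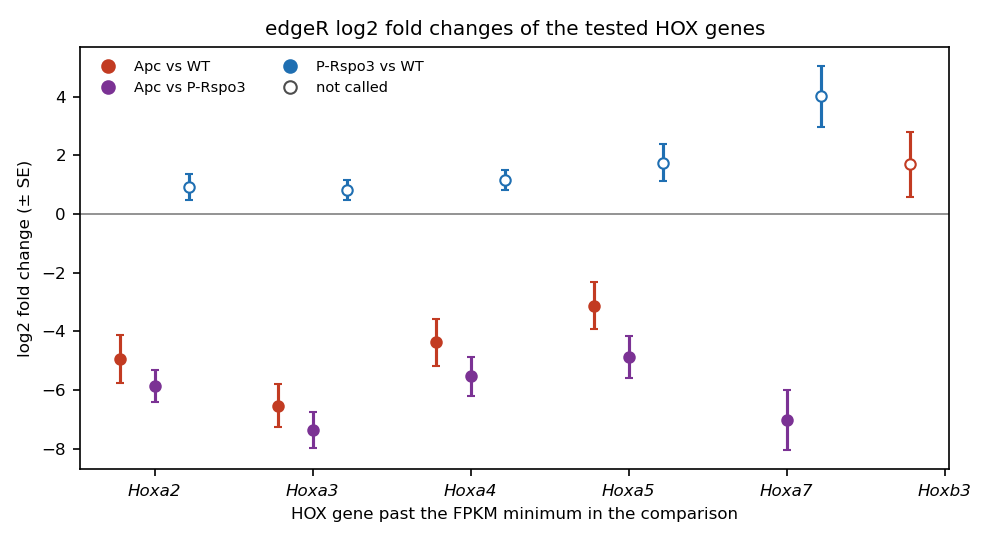
edgeR log2 fold changes with standard errors for the HOX genes past the FPKM minimum in each comparison. Filled points were called (adjusted p under 0.05 and log2 change past 1). All points of Apc vs P-Rspo3 and the 4 HoxA points of Apc vs WT are filled and below 0, and all 5 points of P-Rspo3 vs WT lie above 0 and are open, as is Hoxb3.

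Other genes that lie between the outermost HOX genes of a cluster were listed by position, 45 of them in the count table. They are mostly noncoding, and antisense genes share reads with HOX exons. In Apc against WT, 7 were tested, 3 were called lower and 0 higher, where 14.1% of all genes tested were called lower and 12.2% higher. Hoxaas3, antisense to Hoxa7 and part of Hoxa3, had 21, 32, 27, 29 and 41 counts in WT 1, 2, 5, 6 and naive and 1, 4, 4 and 2 in Apc (log2 change -3.78 ± 0.41, adjusted p = 1.78e-05). It had 60, 47, 32 and 52 counts in P-Rspo3. In the flox WT lines Hoxaas3 thus held 21 to 32 counts where Hoxa7 held 1 to 5.

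Gm15050 (-4.55 ± 0.90, adjusted p = 0.00127) and Hoxaas2 (-3.53 ± 0.83, adjusted p = 0.00379), both in the HoxA cluster, also fell in Apc against WT. Both passed the FPKM minimum there only through the WT libraries, with at most 0.0743 and 0.0415 FPKM in Apc. The count of 3 lower and 0 higher thus says nothing of the remaining listed genes. In Apc against P-Rspo3, 7 of 8 tested were called lower and 0 higher, where 13.3% of all genes were called lower. Gm15050 (-6.24), 5730596B20Rik (-5.72), Hoxaas2 (-4.84), Hoxaas3 (-4.42) and Gm27477 (-1.999) showed the largest changes. Gm15050, 5730596B20Rik and Hoxaas2 passed the FPKM minimum only through the P-Rspo3 libraries. Gm27477 rested on few counts, 3, 1, 1 and 2 in Apc 1, 2, 5 and 6 and 10, 3, 5 and 5 in P-Rspo3 15d, 4d, M and F. The genes called lower included Hotairm1, also in the HoxA cluster. In P-Rspo3 against WT, 0 of 8 were called by edgeR, 5 had an unadjusted p under 0.05, beside 13.5% of all genes, and DESeq2 called 1.

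The protein-coding genes next to the clusters gave no calls above the FPKM minimum. Of the 24 nearest non-HOX neighbours, 19 were tested and 0 were called in each of the 3 comparisons by edgeR. In Apc against WT 14 of the 19 had an unadjusted p under 0.05, beside 62.8% of all genes, and DESeq2 and limma called 0. In Apc against P-Rspo3 14 had such a p, beside 60.9% of all genes, and limma with 0.1 added to FPKM called 1. In P-Rspo3 against WT 1 had such a p, beside 13.5% of all genes, and no other tool called any. Skap2, beyond the anterior end of the HoxA cluster, lay at 14.2 to 20.03 FPKM in WT and 25.2 to 29.0 in Apc.

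Evx1, a homeobox gene beyond the Hoxa13 end, was seen almost only in Apc. It had 0 counts in all 5 WT libraries and 7, 21, 29 and 118 in Apc 1, 2, 5 and 6. P-Rspo3 held 0, 0, 2 and 0. It did not pass the FPKM minimum. Without that minimum it was called higher in Apc against P-Rspo3 (5.75 ± 1.12, adjusted p = 0.00139) and against WT (adjusted p = 0.000799). In these fits 11.1% and 10.6% of genes were called higher. The fit against WT also called Evx2, next to the HoxD cluster, lower in Apc (-3.35 ± 1.22, adjusted p = 0.0497). Evx2 had at most 2 counts in any library. Of all genes in that fit, 10.5% were called lower.

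Few HOX partners of the PBX, MEIS and PKNOX families were called. Of 8 genes, 6 were tested in Apc against WT, with 1 called higher and 1 lower. Among all genes tested there, 12.2% were called higher and 14.1% lower. Meis3 lay at 0.103 to 0.237 FPKM in WT and 1.19 to 1.71 in Apc (log2 change 3.02 ± 0.30, adjusted p = 9.47e-06). Meis2 went down, from 1.97 to 12.6 FPKM in WT to 0.388 to 1.15 in Apc (-3.91 ± 0.66, adjusted p = 0.000414).

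Meis2 also varied within groups, at 0.487, 7.65, 14.4 and 0.991 FPKM in P-Rspo3 15d, 4d, M and F. Meis1 did not pass the FPKM minimum, and had 28, 43, 3 and 7 counts in Apc 1, 2, 5 and 6 against 0 or 1 in all WT and P-Rspo3 libraries. In Apc against P-Rspo3, Meis3 and Meis2 were called in the same directions, and 0 of 6 were called in P-Rspo3 against WT, where none had an unadjusted p under 0.05 and DESeq2 and limma called none.

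The ParaHox and Cdx genes encode homeodomain factors of the gut, and CDX proteins are known regulators of HOX clusters. Of 3 tested in Apc against WT, 2 were called lower and 0 higher. Among all genes tested there, 14.1% were called lower and 12.2% higher. Cdx1 lay at 71.5, 61.3, 53.3, 84.0 and 61.3 FPKM in WT 1, 2, 5, 6 and naive and at 6.12, 3.77, 4.31 and 3.55 in Apc (log2 change -4.18 ± 0.18, adjusted p = 3.07e-08). Cdx2 lay at 70.0 to 91.0 FPKM in WT and 77.6 to 96.0 in Apc and was not called. Pdx1, a duodenal and pancreatic factor, lay at 3.66 to 10.3 FPKM in WT and 0.0213 to 0.688 in Apc (-4.04 ± 0.64, adjusted p = 0.000276). In P-Rspo3 Cdx1 lay at 59.6 to 75.6 and Cdx2 at 62.6 to 88.3 FPKM, and none of the 3 was called or had an unadjusted p under 0.05 against WT, and DESeq2 and limma called none. Cdx4, Gsx1 and Gsx2 were listed at 0 or close to it.

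Retinoic acid is an inducer of anterior HOX genes, and its receptors were split. Of 5 genes tested in Apc against WT 2 were called higher and 1 lower. Among all genes tested there, 12.2% were called higher and 14.1% lower. Rarb lay at 0.0167 to 0.0930 FPKM in WT and 0.784 to 1.14 in Apc (log2 change 3.70 ± 0.37, adjusted p = 8.71e-06). Rarg was higher by 1.04 ± 0.32 (adjusted p = 0.0153), and Rxra was lower by a log2 change of -1.66 ± 0.08 (adjusted p = 5.49e-08). In P-Rspo3 against WT 0 of 4 were called, 1 had an unadjusted p under 0.05, beside 13.5% of all genes, and DESeq2 called 0.

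The 12 regulators of HOX chromatin, the KMT2 and Polycomb groups with their partners, were all tested and 0 were called by edgeR in any comparison. In Apc against WT 9 of the 12 had an unadjusted p under 0.05, beside the same 62.8% of all genes, with a median log2 change of 0.31 beside 0.001 over all genes, and DESeq2 and limma called 0. In Apc against P-Rspo3 8 of the 12 had such a p, beside 60.9%. In P-Rspo3 against WT 1 did, beside 13.5%, with a median of 0.0637.

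**Figure D5:**
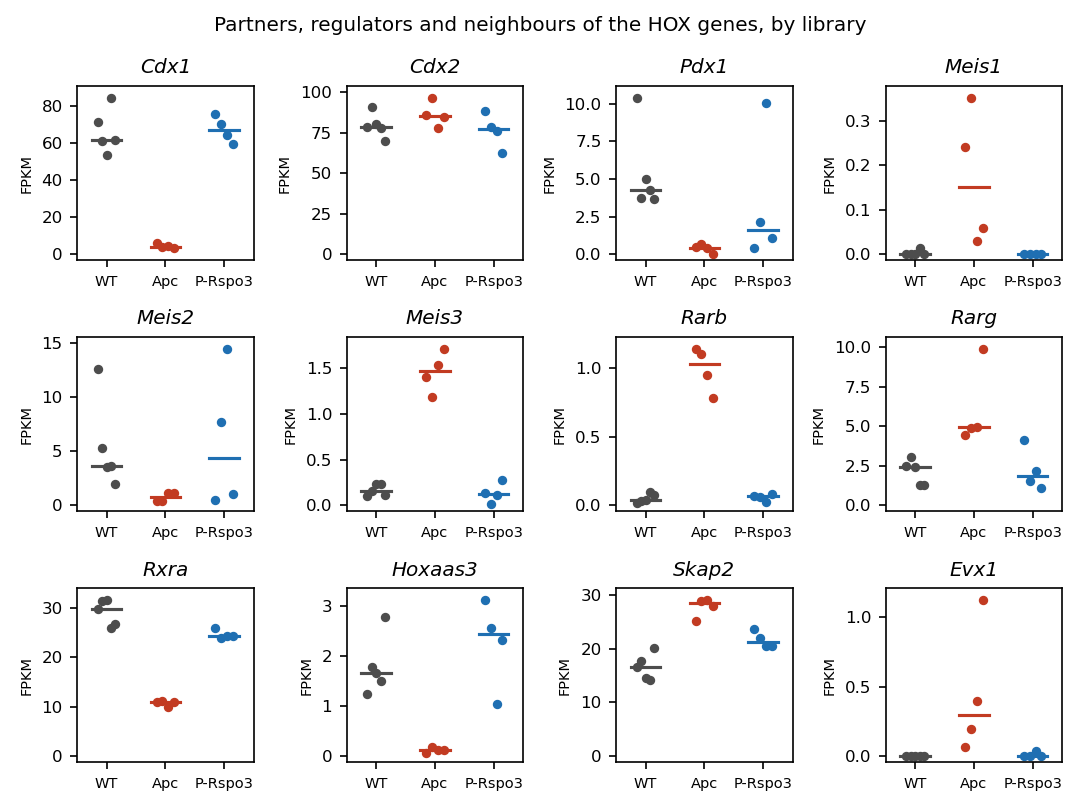
FPKM of 12 genes from the lists of partners, regulators and neighbours in each library, by group, with bars at group medians. Cdx1, Rxra and Hoxaas3 are lower in all 4 Apc libraries than in all others, Meis3, Rarb and Evx1 are higher, as is Rarg, and Cdx2 overlaps between groups.

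Markers of other cell types stood beside these results as follows. Of the 8 mesenchymal markers, the receptor Pdgfrb moved in the same order as the HoxA genes and was highest in P-Rspo3 15d. It lay at 0.0624 to 0.164 FPKM in WT, 0.218 to 0.587 in P-Rspo3 and 0 to 0.0325 in Apc. Its change in P-Rspo3 against WT was not called by edgeR (adjusted p = 0.134), and DESeq2 called it. Other markers of this list went another way. Pdgfra was highest in Apc, at 0.175 to 0.230 FPKM. Thy1 had 1, 16, 35 and 8 counts in Apc 1, 2, 5 and 6. It was at 0 in all WT and P-Rspo3 libraries. The endothelial list summed to 0.289 to 0.389 FPKM in WT, 1.17 to 2.07 in Apc and 0.160 to 0.492 in P-Rspo3. Its sums join opposite changes. Cdh5 was at 0 in all WT and P-Rspo3 libraries and at 1.13 to 1.89 FPKM in Apc. Pecam1 lay at 0.278 to 0.365 FPKM in WT and 0.0262 to 0.152 in Apc. It was called lower by edgeR in Apc against WT (log2 change -2.95 ± 0.37, adjusted p = 5.44e-05). The immune list summed to 1.13 to 1.94, 0.236 to 0.425 and 0.567 to 1.67 FPKM, and the list of enteric neurons and glia to 0.714 to 2.11, 0.905 to 1.48 and 0.876 to 1.21. The part of Pdgfrb-bearing cells in the HoxA values was not tested.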

How the data were processed

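Counts and FPKM of 13 grouped libraries (5 WT, 4 Apc, 4 P-Rspo3) were used. 1 member and 2 listed genes are not reported here and enter no count or sum of members or lists. 2 further libraries whose title and genotype field conflict entered alternatives only. Alignment by the authors used STAR and GRCm38; they deposited raw counts per gene (HTSeq 0.6.0) and, separately, FPKM (Cufflinks 2.2.1). Which annotation they used, and whether HTSeq counted by strand, is not given in the sources used here. Coordinates are from GENCODE on GRCm38.

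Tests on counts used edgeR 4.0.16 (R 4.3.3; TMM, glmQLFit and glmQLFTest at their defaults, Benjamini-Hochberg over all genes tested) in separate pairwise fits, on genes that reached 0.1 FPKM in 4 libraries. A gene was called at an adjusted p under 0.05 and an absolute log2 change above 1. On simulated counts the fit of Apc vs WT recovered 194 of 200 changed genes, with 4 false calls. The changed genes were drawn from those with mean counts above the means of Hoxa2, Hoxa4 and Hoxa5. The simulation therefore says nothing of calls at such low counts. Members and lists were chosen with earlier results of these data known. Named with values were members called in any comparison or with a group mean FPKM of at least 1. Of each list at most 5 called genes were named, by size of change. Hoxa6, HoxB, Hoxd8, Hoxd13, Skap2, Evx1, Meis1, Cdx2, Lct, Car1 and Aqp8 were added after their values were seen. So were the values of Fabp6, Slc10a2, Slc51a, Slc51b, Krt18, Vil1, Krt19, Gm27477, Thy1, Pecam1 and Evx2. Alternatives changed the normalization, test, filter, libraries and line block. The labels do not say which libraries came from separate animals, so p-values measure the spread between libraries, which may be technical. A chi-square comparison of all pairs within groups found no pair alike (minimum 22.4 per gene).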

Additional observations from a re-analysis of the deposited data

Results flagged for a closer look

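In 8 of the 35 sets of group values examined (members with more than 3 counts in at least 1 library of the group), 1 library lay far from the rest of its group. The rule used flags about 5% of sets by chance.

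The dox-naive library lay far above the other 4 WT libraries for 3 HoxA genes. Its FPKM was 0.624 for Hoxa4 (next 0.324), 1.05 for Hoxa7 (next 0.127) and 0.0790 for Hoxa10 (all others 0, from 4 counts). WT 1 was the highest WT library for Hoxd13, at 0.236 FPKM (next 0.0553).

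Apc 2 was the highest Apc library for Hoxa3, at 0.195 FPKM (next 0.0115), from 4 counts. P-Rspo3 15d was the highest of its group for Hoxb9, at 0.390 FPKM, and for Hoxd8, at 0.179 FPKM, with the other P-Rspo3 libraries at 0. P-Rspo3 F was the highest for Hoxd13, at 0.226 FPKM (next 0.0370).

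The ungrouped library whose genotype field reads WT had Hoxa13 at 0.170 FPKM (9 counts), above the WT maximum of 0.0284, and Hoxb4 at 0.0564 FPKM (5 counts), above 0.0528.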

How the results depend on the processing

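The 6 counts of HOX genes called were recomputed 122 times in all, and 106 results stayed within 1.5 times the count reported. Without the FPKM minimum, HOX genes higher in Apc vs WT went from 0 to 3 and lower from 4 to 7, and higher in Apc vs P-Rspo3 from 0 to 2. With an FPKM of at least 1 only Hoxa3 could be tested among the members lower in Apc, giving 1 lower gene in Apc vs WT and 1 in Apc vs P-Rspo3. On log2(FPKM + 1), where a change of a low gene is understated, limma gave 1 lower gene in Apc vs WT and 3 in Apc vs P-Rspo3. DESeq2 gave 1 higher gene in P-Rspo3 vs WT, and leaving out the dox-naive library with no FPKM minimum, chosen after seeing the data, gave 3. With single libraries left out, HOX genes higher ranged from 0 to 1 in Apc vs WT and in Apc vs P-Rspo3, and from 0 to 2 in P-Rspo3 vs WT. The 1 in Apc vs WT was Hoxb4 without Apc 2, and the 2 in P-Rspo3 vs WT were Hoxa4 and Hoxa7 without WT naive. Lower genes stayed at 4 in Apc vs WT and ranged from 5 to 6 in Apc vs P-Rspo3. The sign of Hoxb3 in Apc vs WT turned without Apc 1 and 5, to -1.41 with the FPKM minimum and -1.42 without it. With line as a replicate block over the 4 Apc and 4 WT libraries of the same numbers, 4 members were again lower and 0 higher in Apc vs WT, and no call changed. Same-numbered libraries (lines 1, 2, 5 and 6) had correlations of 0.185, 0.092, 0.081 and 0.026 in their deviations from the group means, and only Apc 1 and Apc 5 correlated best with their own number, so the numbers were not shown to pair them. No other cause was tested. Depth limits most members: with 3 counts or fewer in a library, a gene was not detectable.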

Other observations

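HoxB counts of the WT libraries lay in the same order as those of the Apc libraries with the same line numbers. WT 1 and WT 5 had 10 and 13 HoxB counts and WT 2 and WT 6 had 2 and 3, where Apc 1 and Apc 5 had 96 and 206 and Apc 2 and Apc 6 had 10 and 19. These WT counts were spread over Hoxb2, Hoxb3, Hoxb4, Hoxb5, Hoxb6, Hoxb7 and Hoxb9 at 5 or fewer each, and the order was not tested.

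The 2 ungrouped libraries held 212 HOX counts (genotype field WT) and 71 (genotype field P-Rspo3), or 7.72 and 2.52 CPM. The library with the P-Rspo3 genotype field had 33 counts of Hoxa3, 11 of Hoxa4, 6 of Hoxa5 and 1 of Hoxa7. All 4 values lay below those of all 4 grouped P-Rspo3 libraries. The library with the WT genotype field had 108, 18, 24 and 8 counts of the same genes.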
